A study of Mus musculus with 51 samples.

Results

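*Olfr196*, *Olfr921*, *Olfr714* and *Olfr186* are 4 of the 1117 odorant receptor (OR) genes in the deposited count tables. They were chosen by name, because their reads had been seen to be higher after exposure to SBT in these same libraries. The higher values after SBT below therefore describe how the genes were chosen and carry no test. The samples are whole olfactory mucosa taken through pS6-IP-Seq, in which ribosomes carrying phosphorylated S6 are immunoprecipitated and the bound mRNA is sequenced. Each library came from a mouse about 3 weeks old, exposed for 1 hr to 10 μL of an odorant or of diluent.

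In all, 30 libraries formed 10 odor groups and 21 formed 7 control groups, with 3 mice in each group. SBT, the male mouse volatile 2-sec-butyl-4,5-dihydrothiazole, was given at 0.01%, 1% and 100%. The mice given 0.01% SBT had their own controls, whereas those given 1% and 100% shared one set of 3 control mice. The names of the 0.01% libraries and their controls also carry a different prefix from those of 1% and 100%. Between 0.01% and the upper doses, dose and experiment therefore cannot be told apart. The other odorants were (E)-beta-farnesene at 100%, 2,5-DMP (2,5-dimethylpyrazine) at 1%, the thiol MTMT at 100 uM and 10 mM, DHB (dehydro-exo-brevicomin) at 77%, the macrocyclic musk CPD (cyclopentadecanone) at 100 mM and beta-caryophyllene at 1%. Per the methods, MTMT and CPD were diluted in ethanol and other odorants in water, and control mice received diluent. No diluent is named for 100% SBT. Farnesene, 2,5-DMP and 100 uM MTMT shared one control group although their diluents differ, and which diluent those controls received is not given in the sources used here, so diluent and odorant cannot be told apart for at least 1 of these exposures. Each of the remaining exposures had its own controls. Mice were littermates of mixed sex, C57BL/6J is the wild-type strain that the methods name, and the labels name no transgene for any group. Reads on OR genes numbered 27301 to 160001 per library (median 93870), and the controls shared by 1% and 100% SBT were the shallowest group (27301 to 57154). Of 14 marker genes of sensory neurons, supporting cells, basal cells and blood, 0 are in the tables, which hold OR genes only, so the labelled tissue could not be checked against them.

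ORs are G protein-coupled receptors of olfactory sensory neurons (OSNs), and a mature OSN expresses a single OR gene from 1 allele. S6 is phosphorylated in recently active neurons, so the mRNA of an OR whose OSNs respond takes a larger part of the immunoprecipitated OR reads. A larger number of OSNs expressing an OR and more RNA per OSN cannot be told apart in such bulk libraries. ORs lie in genomic clusters, and near relatives in sequence often lie side by side.

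*Olfr196* (ENSMUSG00000096695) lies on the minus strand of chromosome 16 of GRCm38, at 59166647 to 59170454, with its coding sequence in 1 exon at 59167215 to 59168141. *Olfr186* (ENSMUSG00000047960) lies on the same strand at 59025797 to 59030291, 136.4 kb from *Olfr196*, with its coding exon at 59026979 to 59027905. *Olfr921* (ENSMUSG00000049926) lies on the plus strand of chromosome 9 at 38773068 to 38779021, with its coding exon at 38775257 to 38776195. It belongs to the cluster of *Olfr910* and *Olfr912*, ORs that the study pairs with SBT, and is 232.2 kb and 186.2 kb from them. *Olfr714* (ENSMUSG00000049674) lies on the plus strand of chromosome 7 at 107070981 to 107077802, with its coding exon at 107073830 to 107074780. RefSeq lists MOR183-1 and MOR183-9 as other names of *Olfr196* and *Olfr186*, MOR165-8 for *Olfr921* and MOR263-2 for *Olfr714*.

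Translated from the genome, *Olfr196* and *Olfr186* are proteins of 309 residues each and are 74.8% identical. Their coding sequences of 927 bases differ at 206 positions. *Olfr921* and *Olfr714* are 43.45% identical to each other, and each is between 41.4% and 46.9% identical to the chromosome 16 pair, against medians of 40.8% to 43.1% over all ORs. Because reads of 50 or 75 bases can map to more than one close relative, 51 coding bases are shown for *Olfr196*, *Olfr921* and *Olfr714*, each the window with the most differences summed over the relatives printed with it, read 5′ to 3′ on the coding strand of GRCm38. *Olfr186* is shown in the window of *Olfr196*. Capitals mark bases that differ from the first sequence of each set.
*Olfr196*, chr16:59168088-59168138: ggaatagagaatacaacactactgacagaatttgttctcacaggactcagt
*Olfr193*, chr16:59110555-59110605: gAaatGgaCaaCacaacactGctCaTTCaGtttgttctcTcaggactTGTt
*Olfr191*, chr16:59086428-59086478: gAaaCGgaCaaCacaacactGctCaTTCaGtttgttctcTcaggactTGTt
*Olfr186*, chr16:59027852-59027902: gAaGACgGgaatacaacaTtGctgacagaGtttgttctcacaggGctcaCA
*Olfr183*, chr16:58999690-58999740: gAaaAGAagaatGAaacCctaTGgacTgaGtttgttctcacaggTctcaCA

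The window of *Olfr196* differs at 14 bases from *Olfr193*, 15 from *Olfr191*, 11 from *Olfr186* and 14 from *Olfr183*. All lie on the minus strand except *Olfr183*. Over whole annotated transcripts, 70 of the 1662 stretches of 50 bases in *Olfr196* (4.21%) also occur in another gene, 47 of them in *Olfr191* and 41 in *Olfr193*. *Olfr186* shares 0 of its 2335 stretches.

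For *Olfr921* the relatives shown are the 3 most alike in protein sequence, which lie in the same cluster.
*Olfr921*, chr9:38776034-38776084: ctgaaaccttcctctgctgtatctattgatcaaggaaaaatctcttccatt
*Olfr910*, chr9:38539674-38539724: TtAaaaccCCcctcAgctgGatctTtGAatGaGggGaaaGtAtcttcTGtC
*Olfr912*, chr9:38582056-38582106: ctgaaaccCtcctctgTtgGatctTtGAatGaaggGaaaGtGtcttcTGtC
*Olfr920*, chr9:38756467-38756517: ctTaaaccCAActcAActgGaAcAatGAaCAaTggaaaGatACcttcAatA

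All 4 genes lie on the plus strand. *Olfr921* differs here at 17 bases from *Olfr910*, 13 from *Olfr912* and 19 from *Olfr920*. Of its 4265 stretches 13 (0.305%) occur in another gene, and none of the 5 genes that hold most of them is an OR.

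For *Olfr714* both relatives are its neighbours on chromosome 7.
*Olfr714*, chr7:107074409-107074459: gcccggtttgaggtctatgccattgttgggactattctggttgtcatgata
*Olfr713*, chr7:107036736-107036786: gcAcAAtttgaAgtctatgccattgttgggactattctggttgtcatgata
*Olfr17*, chr7:107098046-107098096: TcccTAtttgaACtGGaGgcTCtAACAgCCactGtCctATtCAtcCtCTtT

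In this set, also on the plus strand, the window of *Olfr714* differs at 4 bases from *Olfr713* and at 26 from *Olfr17*. *Olfr714* shares more sequence than the other ORs described here: 501 of its 4528 stretches (11.1%) occur in another gene. *Olfr713* holds 139 of them. Another 330 are in *Gm45023*, a processed pseudogene annotated on the opposite strand within *Olfr714*, downstream of its coding sequence. The library kits do not mark strand, so reads of *Olfr714* and *Gm45023* cannot be told apart there, and the reads of *Olfr714* are less certain for both reasons.

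*Olfr196* and *Olfr921* were higher than in controls at every dose of SBT, *Olfr186* at 1% and 100%, and *Olfr714* was past the threshold at 0.01% alone. The level of an OR in a library is given as its share, the percent of all OR reads of that library. Fold changes are from edgeR's quasi-likelihood fits, each over all ORs with at least 10 reads in a comparison, and the threshold was a Benjamini-Hochberg adjusted p of 0.05. At 0.01% SBT, 3 of the 4 were past the threshold and higher, beside 0.466% of all 1072 ORs tested (5 ORs, or 3 without control mouse 1, control mouse 2 or SBT mouse 3). At 1% it was also 3 of 4, beside 0.863% of 1043 ORs. At 100% it was again 3 of 4, beside 10.7% of 1050 ORs. These counts follow from how the genes were chosen.

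**Figure D1:**
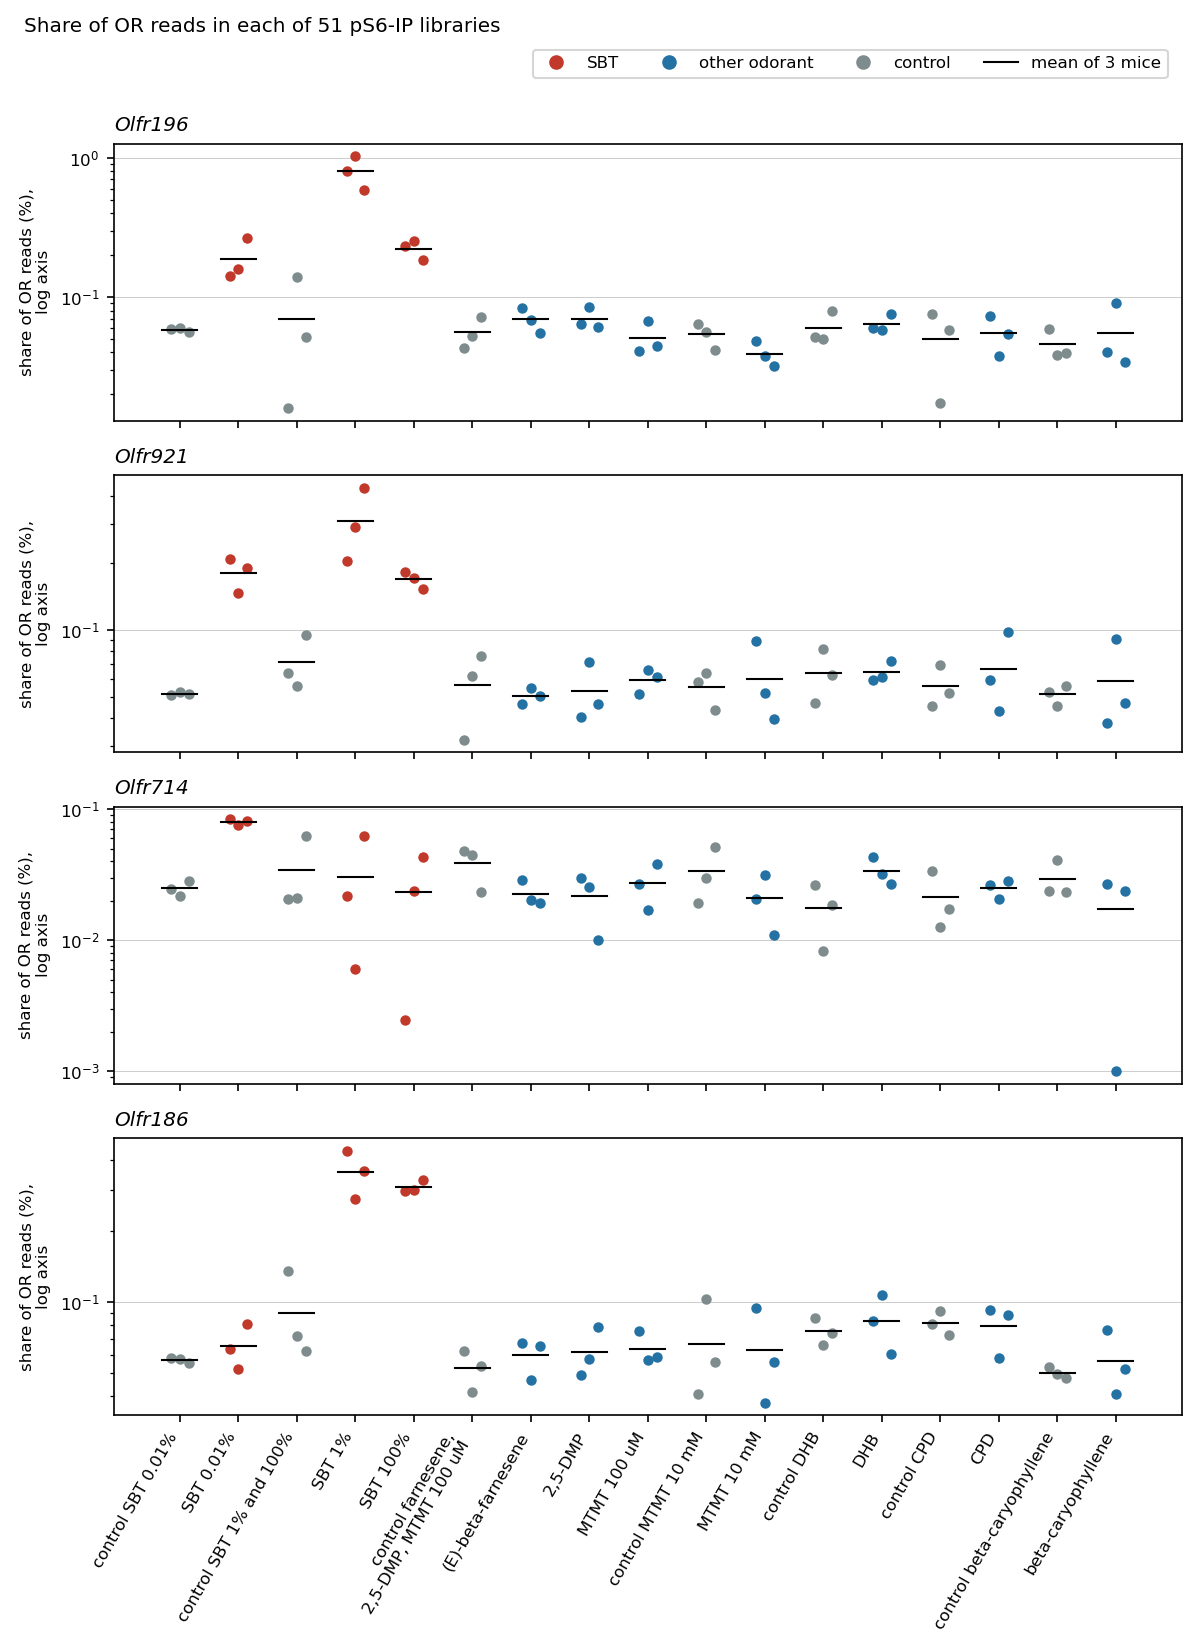
Share of OR reads (percent, log axis) of each of the 4 ORs in all 51 libraries, by group. Points are mice, horizontal lines are means of 3 mice. All 9 SBT libraries of *Olfr196* and *Olfr921* lie above the other 42, *Olfr186* is high in the 6 libraries of 1% and 100% SBT, and *Olfr714* in the 3 of 0.01% SBT. The ORs were chosen for being higher after SBT.

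*Olfr196* had shares of 0.142%, 0.159% and 0.265% in the 3 mice given 0.01% SBT. Their controls held 0.0590%, 0.0597% and 0.0564%. All SBT mice were above all controls, by 1.73 ± 0.32 (SE) on the log2 scale. At 1% SBT the shares were 0.801%, 1.02% and 0.590%, against 0.0159%, 0.140% and 0.0513% in the shared controls. The log2 fold change there was 3.63 ± 0.61, a 12.4-fold difference that ranked 6 among the 1043 ORs tested. With 1 mouse left out it ran from 3.17 to 4.76, the highest being without control mouse 2. At 100% SBT the shares were lower again, at 0.233%, 0.251% and 0.184%. The log2 fold change was 2.05 ± 0.55, which ranked 86 among 1050 ORs. It ran from 1.58 to 3.21 with 1 mouse left out, again highest without control mouse 2. The shared controls spread widely: *Olfr196* had only 7, 80 and 14 reads in them, and the control with 80 reads reached 0.140%, just under the lowest SBT library at 0.142%. Each of the 9 SBT libraries had more than any of the 42 others. Such separations, here and below, are of values that served to choose the genes, and they were not counted over all ORs.

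*Olfr921* gave a similar picture, with less difference between doses. Its shares were 0.207%, 0.146% and 0.190% after 0.01% SBT, against 0.0510%, 0.0527% and 0.0512% in controls, a log2 fold change of 1.84 ± 0.29. After 1% SBT they were 0.205%, 0.289% and 0.436%, and after 100% SBT 0.183%, 0.170% and 0.153%, against 0.0636%, 0.0560% and 0.0952% in the shared controls. The log2 fold changes were 2.26 ± 0.42 and 1.66 ± 0.36, which ranked 21 among 1043 ORs and 130 among 1050. The 9 SBT libraries held at least 0.146%, and the other 42 at most 0.0977%. The 3 doses overlapped in share, so their order is not separated by the spread between mice.

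*Olfr186* was higher than in controls at the upper doses. After 0.01% SBT its shares were 0.0631%, 0.0522% and 0.0806%, overlapping 0.0583%, 0.0577% and 0.0551% in controls, and the log2 fold change was 0.22 ± 0.30. After 1% SBT they were 0.439%, 0.274% and 0.359%, and after 100% SBT 0.296%, 0.299% and 0.330%. The shared controls held 0.136%, 0.0717% and 0.0623%, below every library of both doses. The log2 fold changes, 2.13 ± 0.44 and 2.14 ± 0.37, were nearly equal. They ranked 24 among 1043 ORs at 1% and 78 among 1050 at 100%. The relative *Olfr196* was thus past the threshold at the lowest dose where *Olfr186* was not, but the difference between these receptors was not tested.

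*Olfr714* was high at the lowest dose, whose libraries carry a different name prefix from those of the upper doses. After 0.01% SBT its shares were 0.0837%, 0.0762% and 0.0806%, tightly grouped and above 0.0248%, 0.0219% and 0.0282% in controls, with a log2 fold change of 1.71 ± 0.32. These 3 libraries were the highest of all 51, the next being at 0.0628%. After 1% SBT the shares were 0.0217%, 0.00603% and 0.0628%, and after 100% SBT 0.00245%, 0.0239% and 0.0434%. The shared controls, at 0.0204%, 0.0210% and 0.0623%, overlapped both. The log2 fold changes there were 0.02 ± 0.84 and -0.16 ± 0.82. Reads were few, from 9 to 17 in those controls, 4 to 40 after 1% and 2 to 25 after 100% SBT, and the library with 2 reads has a 95% Wilson interval of 0.000672% to 0.00893% for its share. Such intervals cover counting error only. The standard errors at the upper doses, 0.84 and 0.82, compare with 0.32 at 0.01%.

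**Figure D2:**
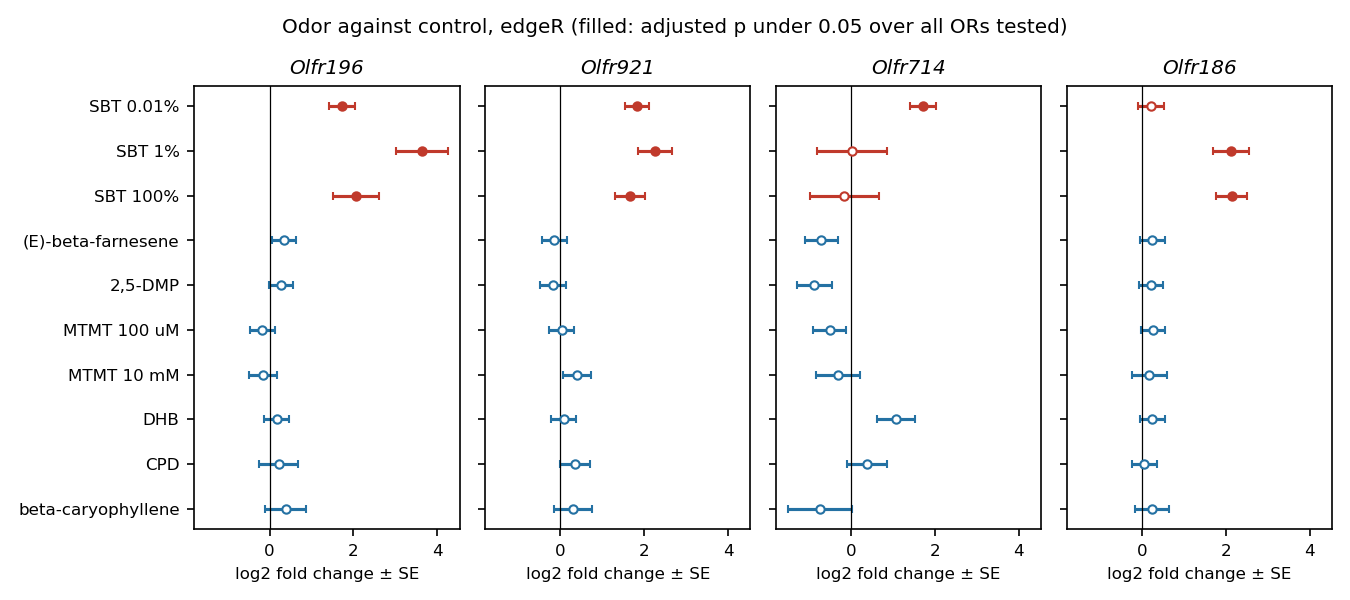
Log2 fold change of each OR (x axis, with its standard error as a bar) in the 10 comparisons of odor with control mice (y axis), from edgeR fits of 3 odor and 3 control mice each. Filled points were past the adjusted threshold of 0.05: 3 receptors at each SBT dose and none after the other odorants.

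Several of these calls were lost with 1 mouse left out, which also left fewer mice in the fit. Without the first 1% SBT mouse none of the 4 ORs was past the threshold at 1%. The log2 fold changes were then 3.56 for *Olfr196*, 2.44 for *Olfr921* and 1.86 for *Olfr186*, against 3.63, 2.26 and 2.13 with all mice. In that library 14.4% of OR reads came from 1 other gene, *Olfr545*. The top OR of the other SBT libraries and their controls held 1.87% to 3.84%. Whether this bore on the calls was not tested. At 0.01% SBT, *Olfr196* dropped below the threshold without control mouse 1, control mouse 2 or SBT mouse 3 (1.73, 1.73 and 1.36), and *Olfr714* without control mouse 1 or 2 or SBT mouse 1 or 3 (1.71, 1.61, 1.69 and 1.68). At 1% SBT, *Olfr921* did so also without control mouse 1 or 2 or SBT mouse 3 (2.20, 2.10 and 1.92), and *Olfr186* without control mouse 2 or 3 or SBT mouse 3 (1.97, 1.94 and 2.14). At 100% SBT, *Olfr196* did so without control mouse 3 or any of the SBT mice (1.88, 2.03, 1.97 and 2.22). *Olfr921* at 0.01% and 100% and *Olfr186* at 100% stayed past the threshold whichever mouse was left out. All these calls are on values that served to choose the genes, so staying past the threshold is no separate support.

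The libraries of 1% and 100% SBT carry 2 name prefixes, SerC for mice 1 and 2 and SerD for mouse 3, each with odor and control libraries. Within SerC the mean share of *Olfr196* was 11.7 times that of controls at 1% and 3.10 times at 100%, and within SerD 11.5 and 3.59 times. For *Olfr921* the ratios were 4.13 and 2.95 within SerC and 4.58 and 1.61 within SerD. For *Olfr186* they were 3.43 and 2.86, and 5.77 and 5.30. *Olfr714* had ratios of 0.670 and 0.636 within SerC and 1.01 and 0.698 within SerD.

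The comparisons with other odorants tested whether the 4 ORs also moved there. The study's 2-heptanone exposure is not among them, because its library columns matched no sample label. The ORs were chosen for SBT, but with earlier results of these data known, so these tests are not wholly independent of the choice. None of the 28 tests, 4 receptors in 7 comparisons, passed the adjusted threshold in edgeR's quasi-likelihood test. At an unadjusted p under 0.05 there were 2, *Olfr714* after DHB and after 2,5-DMP, where 3.57% and 4.39% of all ORs tested had such a p. DESeq2 and edgeR's likelihood ratio test gave 0 past the adjusted threshold, with 1 and 2 at the unadjusted one. DESeq2 gave no adjusted p in 3 of the 28. The share of all ORs past the threshold, in either direction, was 1.77% after farnesene, 0.841% after 2,5-DMP, 0.281% after 100 uM MTMT, 0.564% after DHB, and 0% after 10 mM MTMT, CPD and beta-caryophyllene. In these last 3 comparisons 69, 40 and 51 ORs had an unadjusted p under 0.05, and DESeq2 placed 15, 1 and 0 past the adjusted threshold. The study reports *Olfr1437* and *Olfr235* as enriched after CPD, where the quasi-likelihood test called no OR. A lack of calls for the 4 ORs in these 3 comparisons therefore says little.

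*Olfr196* had log2 fold changes from -0.17 ± 0.30 (100 uM MTMT) to 0.39 ± 0.48 (beta-caryophyllene). *Olfr921* ranged from -0.17 ± 0.31 after 2,5-DMP to 0.39 ± 0.33 after 10 mM MTMT. *Olfr186* stayed between 0.06 ± 0.29 after CPD and 0.26 ± 0.29 after 100 uM MTMT. For these receptors no value had an unadjusted p under 0.05.

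*Olfr714* varied more. After DHB, a mouse urine constituent, its shares were 0.0429%, 0.0318% and 0.0266%, against 0.0266%, 0.00824% and 0.0184% in controls. The lowest DHB mouse (38 reads, 0.02664%) was barely above the highest control (17 reads, 0.02656%), so the shares did not overlap. The Wilson intervals of these libraries did, at 0.0194% to 0.0366% and 0.0166% to 0.0425%. Such separations after DHB were not counted over all ORs, so no conclusion is drawn from this one. The log2 fold change was 1.07 ± 0.46, with an unadjusted p of 0.029 and an adjusted p of 0.994 in edgeR's quasi-likelihood test. After 2,5-DMP the shares were 0.0298%, 0.0253% and 0.0101%, overlapping 0.0480%, 0.0448% and 0.0235% in controls, with a log2 fold change of -0.88 ± 0.42 (unadjusted p = 0.0489 and adjusted p = 0.991 by edgeR). After farnesene, against the same controls, it was -0.71 ± 0.38, and after 100 uM MTMT -0.51 ± 0.39. The DHB controls had the lowest mean share of *Olfr714* among the 7 control groups (0.0177%), and these shared controls the highest (0.0388%). The means after DHB (0.0338%) and 2,5-DMP (0.0217%) lay between them. The cause of these shifts was not tested. In the second beta-caryophyllene mouse *Olfr714* had 1 read of 99952.

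Without odor, levels were compared over the 5 control groups outside the SBT experiments (15 libraries). The controls of CPD and 10 mM MTMT carry the same library name prefixes and belong to odorants diluted in ethanol. Between the other groups experiment and name prefix cannot be told apart. Control means of *Olfr196* in them ran from 0.0457% to 0.0602%, of *Olfr921* from 0.0512% to 0.0637%, of *Olfr714* from 0.0177% to 0.0388% and of *Olfr186* from 0.0503% to 0.0818%. None of the 4 differed between groups in edgeR's F-test over all 1082 ORs, with adjusted p = 0.993, 0.995, 0.724 and 0.813 in that order, unadjusted p of 0.936, 0.957, 0.135 and 0.246, and 0 past the adjusted threshold by DESeq2's likelihood ratio test. Of all ORs 2.22% were past the threshold.

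In the order of the 17 group means, *Olfr196* was highest after 1% SBT (0.805% ± 0.217, SD, n = 3), followed by 100% (0.223% ± 0.0344) and 0.01% SBT (0.189% ± 0.0663). The 1% and 100% mice did not overlap, and the 100% and 0.01% mice did. The next group, 2,5-DMP, was at 0.0701% ± 0.0133, below every SBT mouse, and from there down to 0.0392% ± 0.00829 after 10 mM MTMT each group overlapped the next. *Olfr921* ran from 0.310% ± 0.117 after 1% SBT through 0.181% ± 0.0314 (0.01%) to 0.169% ± 0.0149 (100%), each overlapping the next. After a gap came the controls of 1% and 100% SBT at 0.0716% ± 0.0208, and the remaining groups overlapped down to 0.0506% ± 0.00422 after farnesene. *Olfr186* was at 0.358% ± 0.0826 and 0.308% ± 0.0189 after 1% and 100% SBT, which overlapped, and then, after a gap, between 0.0901% ± 0.0403 and 0.0503% ± 0.00280. Its mean after 0.01% SBT, 0.0653% ± 0.0144, was the ninth of the 17. *Olfr714* was highest after 0.01% SBT (0.0802% ± 0.00378), and the other 16 groups, from 0.0388% ± 0.0133 to 0.0172% ± 0.0141, formed one overlapping series that included 1% and 100% SBT.

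Most ORs within 100 kb of these genes were not past the threshold after SBT. There are 29 such ORs, other than the 4 themselves, of which 27 were tested after SBT. At 0.01% and 1% SBT 0 of the 27 were past the threshold in edgeR's quasi-likelihood fit, where 0.466% and 0.863% of all ORs were higher. At 100% there were 4 of 27, all higher, beside 10.7% of all ORs. The median log2 fold change of the 27 was 0.08, 0.24 and 0.25 at the 3 doses, against 0.00, 0.02 and -0.07 over all ORs tested. At 100% SBT the neighbourhoods differed, with medians of 0.74 around *Olfr196* and 1.17 around *Olfr186*, whose neighbours partly overlap. Around *Olfr921* and *Olfr714* the medians were -0.41 and -0.07.

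**Figure D3:**
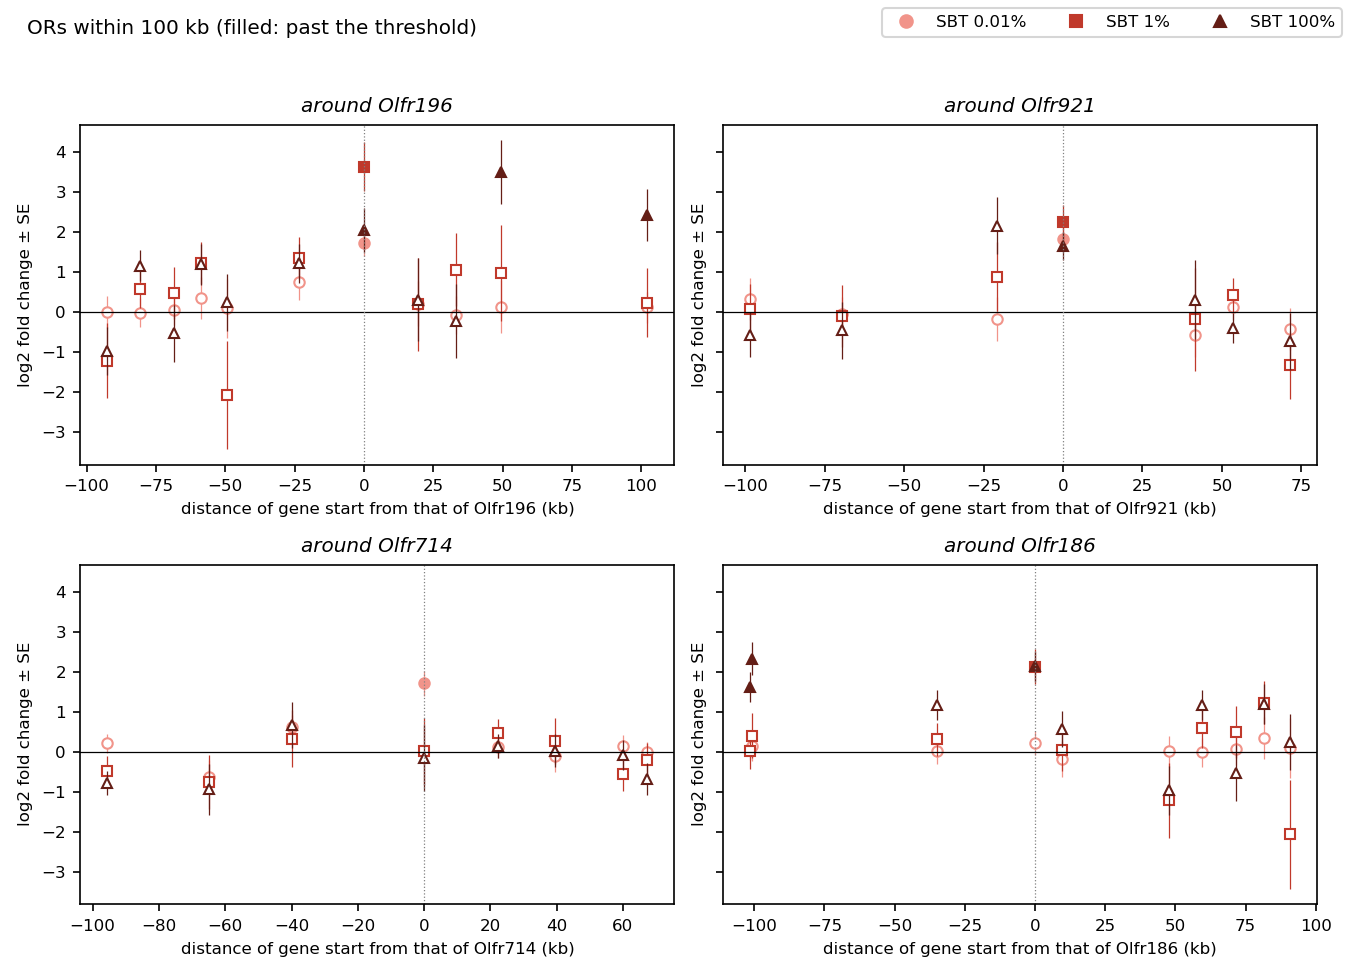
Log2 fold change with its standard error (y axis) after the 3 SBT doses for ORs within 100 kb of each receptor, by distance of gene starts in kb (x axis). Filled points were past the threshold. At 100% SBT these were *Olfr199* and *Olfr201* beside *Olfr196*, and *Olfr180* and *Olfr181* beside *Olfr186*, with none beside *Olfr921* or *Olfr714*.

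Near *Olfr196*, 2 of 10 tested ORs were past the threshold at 100% SBT, *Olfr199* (log2 fold change 3.50 ± 0.80) and *Olfr201* (2.42 ± 0.65). Neither was at 0.01% or 1%. The gene next to it on the lower side, *Olfr195*, had values of 0.75 ± 0.44, 1.35 ± 0.52 and 1.22 ± 0.50 from the lowest to the highest dose, none past the threshold, and *Olfr197* on the other side 0.22 ± 0.56, 0.20 ± 1.17 and 0.31 ± 1.04. Near *Olfr186*, 2 of 9 were past it at 100%, *Olfr180* (2.33 ± 0.41) and *Olfr181* (1.62 ± 0.37), 96.41 and 97.04 kb away. *Olfr187*, only 5.27 kb from *Olfr186*, had 0.04 ± 0.51 at 1% and 0.58 ± 0.44 at 100%. Around *Olfr921* none of 6 tested ORs was past the threshold at any dose, although *Olfr920*, 12.95 kb away, had 2.16 ± 0.71 at 100%. *Olfr26* and *Olfr926* had too few reads to test. Around *Olfr714* none of 7 was, and the adjacent *Olfr713* and *Olfr17* had at most 0.67 ± 0.58 and 0.48 ± 0.35.

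Of the nearest relatives in protein sequence, *Olfr910* was the single one outside the 4 ORs that was past the threshold at every SBT dose, of 7. The ORs most alike to *Olfr196* are *Olfr193* (89.0% identical) and *Olfr191* (88.0%). After 1% SBT, where *Olfr196* had 3.63, they had log2 fold changes of 1.23 ± 0.53 and 0.59 ± 0.49, and after 100% SBT 1.20 ± 0.50 and 1.17 ± 0.38, none past the threshold. In mean share *Olfr193* went from 0.0438% ± 0.0274 in controls to 0.0960% ± 0.00279 after 1% SBT. *Olfr193* was the single OR of this neighbourhood past the threshold after another odorant, farnesene (1.76 ± 0.42, adjusted p = 0.0293 by edgeR), where *Olfr196* had 0.34 ± 0.29. For *Olfr186* the nearest are *Olfr196* and *Olfr183* (74.4%), and *Olfr183* had 0.02 ± 0.32, 0.31 ± 0.42 and 1.17 ± 0.37, none past the threshold.

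*Olfr921* is 81.3% identical to *Olfr910* and 80.65% to both *Olfr920* and *Olfr912*. *Olfr910* and *Olfr912* had log2 fold changes of 2.79 ± 0.31 and 2.97 ± 0.40 at 0.01% SBT, 2.88 ± 0.45 and 2.63 ± 0.44 at 1%, and 1.60 ± 0.37 and 1.19 ± 0.39 at 100%. The last was not past the threshold. *Olfr921*, with 1.84, 2.26 and 1.66, was thus higher at every dose alongside these relatives, while *Olfr920* had -0.16 ± 0.55 at 0.01% and 0.90 ± 0.85 at 1%. The difference between them was not tested. For *Olfr714* the nearest are *Olfr713* (93.7%) and *Olfr17* (73.0%), with 0.61 ± 0.32 and 0.12 ± 0.27 at 0.01% SBT, where *Olfr714* had 1.71. *Olfr713*, which shares stretches of sequence with *Olfr714*, had shares between 0.0672% and 0.0743% in the mice given 0.01% SBT and between 0.0306% and 0.0576% in their controls.

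**Figure D4:**
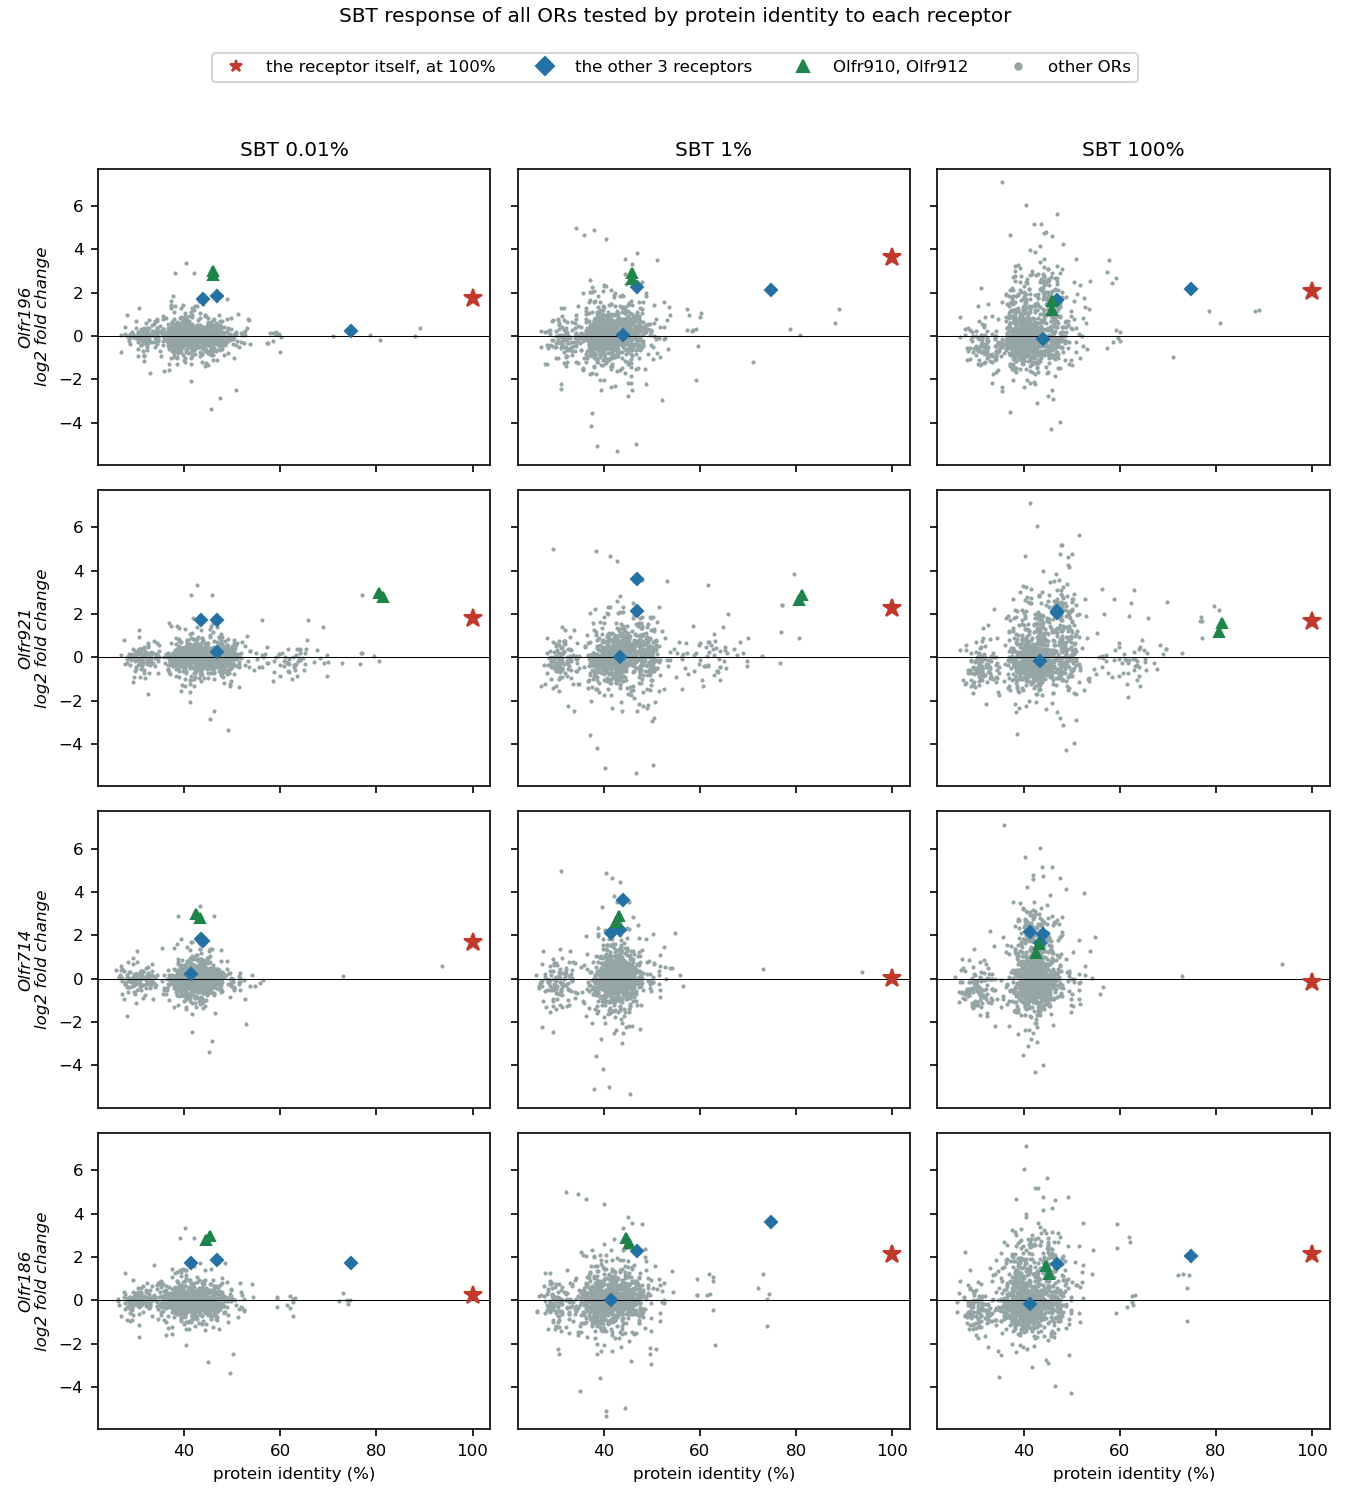
Log2 fold change after each SBT dose (y axis, columns) against protein identity in percent to each receptor (x axis, rows) for all ORs tested that have an intact reading frame. The star is the receptor itself. Beyond 60% identity, *Olfr910* and *Olfr912* (triangles) lie high beside *Olfr921*, *Olfr196* and *Olfr186* (diamonds) beside each other at 1% and 100%, and the 2 relatives of *Olfr714* lie between 0.12 and 0.67.

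Counted over every relative with at least 60% identity, a bound chosen after the values were seen, *Olfr196* had 8 tested relatives at each dose, of which 0, 1 and 1 were past the threshold, in each called case *Olfr186*. *Olfr186* had 13, with 1, 1 and 3 past it: *Olfr196* at every dose, with *Olfr203* and *Olfr209* at 100%. Both *Olfr196* and *Olfr186* were themselves chosen for being higher after SBT, and without them the counts are 0, 0 and 0 for *Olfr196* and 0, 0 and 2 for *Olfr186*. *Olfr921* had 53, 50 and 49, with 2, 3 and 4 past it. These were *Olfr910* and *Olfr912* at 0.01%, the same with *Olfr914* at 1%, and *Olfr910*, *Olfr914*, *Olfr913* and *Olfr881* at 100%. *Olfr714* had 2, of which 0 were past it in edgeR's fit at any dose. Shares of all ORs were those given above.

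Across the 17 group means, on a scale of log2 of the share per 100000 OR reads plus 5, the most similar pattern to *Olfr196* among 949 ORs was that of *Olfr921* (r = 0.949), and that to *Olfr921* was *Olfr196*. *Olfr910* (0.948) and *Olfr912* (0.937) followed for *Olfr921*, and *Olfr1352* (0.927) and *Olfr1085* (0.915) for *Olfr196*. *Olfr186* was closest to *Olfr195* (0.919), *Olfr60* (0.881) and *Olfr535* (0.873). *Olfr714* had weaker partners, *Olfr628* (0.662), *Olfr351* (0.635) and *Olfr763* (0.624), and its r with *Olfr196*, *Olfr921* and *Olfr186* was 0.12, 0.23 and -0.22. These correlations describe 17 points that share libraries and controls, and the SBT groups weigh heavily in them. Both *Olfr196* and *Olfr921* were chosen for being higher in those groups, so a high r between them is not a separate result.

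The scaling matters most at 100% SBT. With OR read totals in place of TMM factors (edgeR's scaling by a trimmed mean of log ratios), the median log2 fold change over all ORs moved by -0.39 there, and by -0.12 at 1% SBT, -0.31 after 10 mM MTMT and -0.11 after CPD. On that scale *Olfr196*, *Olfr921* and *Olfr186* had log2 fold changes of 1.65, 1.26 and 1.76 after 100% SBT, the first no longer past the threshold.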

How the data were processed

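Whole olfactory mucosa of 51 mice, in 17 groups of 3, was profiled by pS6-IP-Seq with SMART-Seq v4 and Nextera XT libraries and single reads of 50 or 75 bases. Per the methods and the submitters' processing notes, the authors aligned reads with STAR (multimapping reads kept) to a modified GRCm38 and deposited RSEM expected counts, as whole numbers, for OR genes. RSEM splits reads shared by near-identical genes, which bears on *Olfr714* and *Olfr196*. The deposited tables also hold the authors' comparison columns (logFC, logCPM, LR, PValue, FDR), which were not used. Another 6 per-sample columns matched no label and were not used, and 9 control columns repeated in several tables were identical.

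Each odor group was compared with its controls in edgeR 4.0.16 (R 4.3.3) by the quasi-likelihood test with TMM factors, for ORs with at least 10 reads in the comparison, with Benjamini-Hochberg adjustment over all of them and a threshold of 0.05. TMM factors and shares rest on OR reads alone. Standard errors were derived from each fit, as the absolute log2 fold change divided by the square root of its F statistic. The 15 control libraries outside the SBT experiments were compared by an F-test. The design assumed counts, and the expected counts were already whole. The test was first tested on simulated data. Shares, Wilson intervals and figures were made in Python 3.11.15 with pandas 2.3.3, scipy 1.17.1 and matplotlib 3.10.9. Sequences were read from GRCm38 at GENCODE M21 coding positions, and the 1106 ORs with a translated coding sequence were aligned with biopython 1.88. Other names come from RefSeq.

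The 4 ORs and all lists were chosen with earlier results of these data known. Genes named were these 4, every OR within 100 kb, the 2 ORs most alike in protein to each, the 3 most alike in pattern over the groups, and *Olfr910* and *Olfr912*. Replicate pairs differed by more than sampling noise (chi-square per degree of freedom 5.22 to 28.0 over 51 pairs). The correlation of deviations between mice of the same replicate number was 0.053 to 0.318, and was above 0.1 for every number in 6 of 10 comparisons. The methods describe litter matching but not that a number marks a litter. Alternatives were a replicate block, DESeq2 1.42.0, edgeR's likelihood ratio test, no TMM, no filter beyond 1 read, 1 fit of all libraries, shares without the top OR and leaving out each mouse. A block for the prefix of library names was added after seeing the data.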

Additional observations from a re-analysis of the deposited data

How the results depend on the processing

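Under every alternative run, *Olfr196* and *Olfr921* at the 3 SBT doses, *Olfr186* at 1% and 100% and *Olfr714* at 0.01% kept the direction of their log2 fold change, and no call was gained by any of the 4 ORs. These SBT values served to choose the genes, so the kept direction is a description only. Leaving out 1 mouse put between 1 and 3 of the 4 past the threshold at 0.01% SBT and between 0 and 3 at 1%. The value for *Olfr714* at 1% SBT, 0.02, had no stable sign: it was -0.34 with the replicate block, -0.013 by DESeq2, -0.15 without TMM and -0.22 with the name prefix as a block, and ran from -1.11 to 0.72 with 1 mouse left out. Without TMM, *Olfr186* turned to -0.10 after 10 mM MTMT and -0.050 after CPD. The causes were not tested. The replicate block changed no call of the 4 ORs.

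Signs also turned on leaving out 1 mouse for *Olfr714* after 100% SBT (-0.87 to 0.49) and 10 mM MTMT (-0.84 to 0.069). For *Olfr196* this held after 100 uM MTMT (-0.44 to 0.029), CPD (-0.19 to 0.58) and beta-caryophyllene (-0.23 to 0.67). For *Olfr921* it held after 100 uM MTMT (-0.19 to 0.27), farnesene (-0.36 to 0.11), 2,5-DMP (-0.41 to 0.063), DHB (-0.10 to 0.33) and beta-caryophyllene (-0.22 to 0.56). For *Olfr186* it held after 10 mM MTMT (-0.075 to 0.69), 2,5-DMP (-0.0030 to 0.39), CPD (-0.011 to 0.16) and beta-caryophyllene (-0.023 to 0.41).

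In all, 452 alternative fold changes kept direction and side of the threshold, where a missing adjusted p was counted as the same side. Another 26 reversed and 22 fell below the threshold. *Olfr714* at 0.01% SBT did so also with 1 fit of all libraries (1.71). Without each library's top OR, 64 of 68 group shares moved by less than 1 SD. Counts over all ORs moved more: at 0.01% SBT 5 were past the threshold, against 4 to 7 under other settings and 3 to 5 with 1 mouse left out. At 1% SBT 9 were past the threshold, against 8 to 28 under other settings and 0 to 8 with 1 mouse left out. After 10 mM MTMT it was 0, against 0 to 29 and 0 to 38, and after 100 uM MTMT 3, against 0 to 7 and 1 to 5. After 2,5-DMP it was 9, against 7 to 17, after farnesene 19, against 8 to 28 with 1 mouse left out, and between control groups 24, against 9 to 27 with 1 mouse left out. Counts of *Olfr714* were the lowest of the 4 ORs, with 2 to 40 reads per library at 1% and 100% SBT. The library with 2 reads held 81626 OR reads, and the third of 100% SBT, with 25 reads of *Olfr714*, held 57551. The cause of this spread between mice was not tested.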
